A study of Mus musculus with 18 samples.

Results

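The MYC, MAX and MXD network is a set of 10 genes, Myc, Mycn, Mycl, Max, Mxi1, Mxd1, Mxd3, Mxd4, Mnt and Mga. They were taken by name from the 25239 genes of the expression table, and all 10 were present. RNA was sequenced from 18 cultures of 3 mouse small cell lung cancer (SCLC) cell lines, 4711-1, 4711-18 and 4716-11, called Type D in the study. The lines were grown from single lung tumours of RP TR R2 mice on a mixed background, in which adenoviral CMV-Cre delivered to the lung had removed the floxed Rb1 and p130 (Rbl2) genes and trapped Trp53 in its silent TR form. Every group therefore lacks RB and p130. Control cells received vehicle. Restored cells received 4-OHT for 72 h, which activates the FlpO-ER recombinase expressed from Rosa26 and converts the trapped allele to the R form. Each culture carried 1 of 3 sgRNAs in a lentiviral CRISPR vector: sgBgal, against β-galactosidase, or sgPpia#3.2 or sgPpia#4.1, against Ppia, the gene of cyclophilin A. The 6 conditions had 3 samples each, 1 per line. Selected pools still made some Ppia transcript, and the study reports cyclophilin A as lowered but not lost after such targeting. The sgPpia cells are therefore a model of reduced and not of absent cyclophilin A.

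MYC proteins are transcription factors that bind DNA at E-boxes only as heterodimers with MAX. MAX also pairs with the MXD proteins, MXI1, MNT and MGA, and those dimers occupy the same sites and, in the case of the MXD proteins, MXI1 and MNT, recruit SIN3 and histone deacetylases to repress. In SCLC the 3 MYC paralogs are amplified in different tumours, and MAX and MGA are lost in some. The questions were how the network's mRNAs stand in cells without p53, how they change when p53 returns, and whether the sgRNA or the line alters that.

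Expression is given as TPM, a share of all transcripts in the sample scaled for transcript length, so levels of different genes may be compared. The columns all sum to the same total and hold no read counts, so the depth of each sample is unknown. Trp53 checked the labels: it was 5.45 to 8.41 TPM in the 9 Control samples and 181 to 236 TPM in the 9 Restored samples. Ppia was 2575 to 2849 TPM in Control cells with sgBgal, 658 to 1207 TPM with sgPpia#3.2 and 1684 to 1952 TPM with sgPpia#4.1. The neuroendocrine factor Neurod1 was at 0.0124 to 0.156 TPM and the granule protein gene Chga at 0 to 0.156 TPM, so these neuroendocrine markers were near 0, while Syp was at 3.03 to 7.12 TPM, Ncam1 at 6.90 to 29.7 TPM and Yap1 at 63.2 to 125 TPM. Of the 14 lineage genes 5 passed the filter on low values. Summed TPM of 7 fibroblast markers was 0.423 to 1.22, of 7 leukocyte markers 0.304 to 3.10 and of 5 endothelial markers 0.196 to 1.61. The 4711-18 Control sample with sgPpia#3.2 stood apart: its Cdkn1a was 369 TPM, and the remaining 8 Control samples had 99.4 to 171 TPM, while its Mki67 was 23.0 TPM and theirs 62.1 to 99.6 TPM. Results that turn on that sample are given with and without it.

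Upstream sequence is shown for 4 genes on which the results turn, Mxd1, Mxd3 and Mxd4 among the partners and Mycn among the paralogs. The stretches come from RefSeq windows of 250 bases before a transcription start (GRCm38.p6), cut back to bases outside every annotated exon and outside the RefSeq extent of the gene. Capitals mark a canonical E-box (CACGTG) or an E2F-like motif (TTTCCCGC, TTTGGCGC, TTTCGCGC or TTTGCCGC), searched on both strands.
Mxd1, chr6:86669235-86669409, minus strand: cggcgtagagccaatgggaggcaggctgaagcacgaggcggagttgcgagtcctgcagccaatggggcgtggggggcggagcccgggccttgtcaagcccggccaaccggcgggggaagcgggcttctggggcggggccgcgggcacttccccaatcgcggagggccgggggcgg
Mxd3, chr13:55329901-55329981, minus strand: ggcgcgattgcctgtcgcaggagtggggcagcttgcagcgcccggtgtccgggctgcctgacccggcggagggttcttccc
Mxd4, chr5:34187721-34187960, minus strand: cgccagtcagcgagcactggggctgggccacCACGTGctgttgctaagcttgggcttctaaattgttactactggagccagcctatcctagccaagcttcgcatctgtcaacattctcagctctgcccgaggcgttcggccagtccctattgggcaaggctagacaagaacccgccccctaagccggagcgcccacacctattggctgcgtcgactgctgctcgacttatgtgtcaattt
Mycn, chr12:12941915-12942086, minus strand: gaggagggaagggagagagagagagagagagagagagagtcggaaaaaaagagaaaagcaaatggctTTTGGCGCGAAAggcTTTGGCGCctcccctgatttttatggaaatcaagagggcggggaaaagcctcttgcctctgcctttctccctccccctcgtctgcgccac
In the same build the genes lie at chr6:86647044-86669234 (Mxd1), chr13:55325170-55329900 (Mxd3), chr5:34176580-34187710 (Mxd4), chr12:12936093-12941836 (Mycn), chr4:122995588-123002490 (Mycl) and chr15:61985341-61990361 (Myc). Myc has no entry among the sequences used here, and the windows of Mycl, Mga and Mxi1 lie inside their annotated genes and are not printed. The Mycn window of 250 bases holds 3 E2F-like matches, of which 2 overlap, all in the shorter printed stretch, and such a match was found in 1.86% of 32851 RefSeq windows of 250 bases. The Mxd4 window holds 1 E-box, also in its printed stretch and found in 6.02% of windows, and the Mnt window holds 1 as well. The windows of Mxd1 and Mxd3 hold neither motif, no CHR-like motif (TTTGAA, in 16% of windows) and no match to the p53 half-site consensus. Of the members, the Mycl window alone matches that consensus once, as do 7.13% of all windows. GC content of the printed stretch was 74.9% for Mxd1, 72.8% for Mxd3, 57.5% for Mxd4 and 54.1% for Mycn. A match describes letters and is no evidence of binding.

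Myc was by far the main paralog in these cells. In Control samples its median was 227 TPM, with a range of 180.3 to 364 TPM. Mycl, the paralog first found in SCLC, had a median of 4.81 TPM and Mycn a median of 0.667 TPM. Myc made up 95.3% to 98.5% of the summed paralog TPM in Control cells and 96.7% to 99.7% in Restored cells. Max, the shared partner, followed Myc with a median of 66.9 TPM. The remaining partners were ordered as Mxd4 (median 46.4 TPM), Mxi1 (38.2 TPM), Mnt (33.7 TPM), Mxd3 (16.7 TPM), Mxd1 (13.8 TPM) and Mga (7.93 TPM). Apart from Myc and Max, the ranges of each gene and the next in that order overlapped. Within single samples Max was nevertheless above Mxd4, Mnt above Mxd3 and Mxd1 above Mga in 9 of 9 Control samples. Mxd4 was above Mxi1 in 4 of 9 and Mxd3 above Mxd1 in 5 of 9, so these neighbours had no steady order. In Restored cells Mxd1 stood above Mnt and Mxd3 below Mga in the order of medians, in 7 of 9 samples each.

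With p53 restored Mxd1 rose and Mxd3 fell by 2-fold or more, and Mycl was lower. Mycl reached 1 TPM in 9 Control and 2 Restored samples, so it passed the filter of 3 samples only through the group where it is high, and its call with the filter is a description. Averaged over the sgRNAs, the log2 fold change was 1.59 ± 0.24 (SE) for Mxd1, -1.69 ± 0.29 for Mycl and -1.60 ± 0.35 for Mxd3, with limma adjusted p of 0.00013 for Mxd1 and 0.0023 for Mxd3. In the fit of all genes with no filter the adjusted p of Mycl was 0.0011. For Mxd4 it was 0.60 ± 0.13 (adjusted p 0.0018), under the minimum of 1 on the log2 scale that a call required, and by adjusted p alone 27.9% of tested genes were higher. The average sets 9 Restored against 9 Control samples that come from only 3 lines. As deviations from condition means, samples of a line correlated at 0.73 on average. They are not independent replicates, so these limma p-values speak of these cultures and not of SCLC lines at large. Fold changes are of log2(TPM + 1), which understates the change of low genes such as Mycl, and a gene was called at a Benjamini-Hochberg adjusted p under 0.05 over 12828 tested genes. The 3 members past the thresholds, 1 up and 2 down of 10 with Mycl among them, compare with 8.93% of all tested genes called in that comparison. The same 3 were called with the line as a replicate block, and 3 members were called without each line in turn and without the 4711-18 Control sample with sgPpia#3.2. All tested genes had a median log2 fold change of 0.17, and the 10 members one of -0.05.

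**Figure D1:**
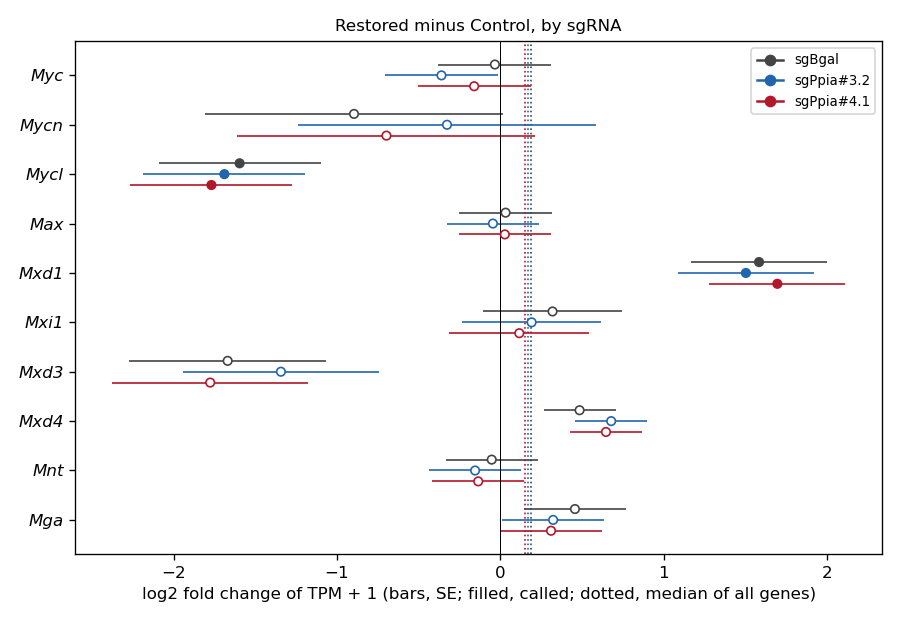
Log2 fold change (Restored minus Control) of the 10 members for each sgRNA, with SE bars. Filled points passed the thresholds for a call, for Mycl only as a description, and dotted lines mark the median of all tested genes. Mxd1 lies at 1.5 to 1.70 and Mycl at -1.77 to -1.60 with every sgRNA.

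Within each sgRNA, 2 members passed the thresholds, Mxd1 and, with the limit just given, Mycl. For sgBgal, sgPpia#3.2 and sgPpia#4.1, 7.64%, 5.75% and 6.09% of all tested genes were called. With the replicate block Mxd3 was called as well, which made 3 members with each sgRNA. Without the 4711-18 Control sample with sgPpia#3.2, fewer members were called with sgBgal and with sgPpia#3.2. With only the groups compared, fewer were called with every sgRNA, and these counts are given with the processing below. With 2 lines, calls within an sgRNA were lost while the changes kept their direction: without 4711-1 both Mxd1 and Mycl lost theirs, without 4711-18 Mxd1 did, and without 4716-11 Mycl did with every sgRNA and Mxd1 with sgBgal and sgPpia#3.2. The log2 fold change left was 1.23 to 2.12 for Mxd1 and -2.14 to -1.33 for Mycl over the 3 sgRNAs and the 3 lines left out. Among all tested genes more were called higher than lower, 701 against 279 with sgBgal, 570 against 168 with sgPpia#3.2 and 552 against 229 with sgPpia#4.1. After median-of-ratios rescaling, which removes the shift of the median, these were 479 against 391, 413 against 243 and 414 against 296. Averaged over the sgRNAs the split was 817 against 329 as deposited and 585 against 475 after rescaling. In bulk RNA, fewer cells that express a gene and less of its RNA per cell cannot be told apart.

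Mxd1 (MAD1) is a MAX partner that is typically induced when cells stop dividing and differentiate. With sgBgal it was 17.6, 15.4 and 10.4 TPM in Control cells of lines 4711-1, 4711-18 and 4716-11, and 57.6, 44.7 and 34.2 TPM in Restored cells. With sgPpia#3.2 it went from 14.5, 15.2 and 9.47 TPM to 55.3, 38.5 and 26.1 TPM in the same order. With sgPpia#4.1 it went from 13.8, 12.7 and 10.9 TPM to 90.2, 41.0 and 20.5 TPM. All 9 Restored samples lay above all 9 Control samples, as did those of 8.12% of tested genes. On the log2 scale the rise was 1.58 ± 0.42, 1.5 ± 0.42 and 1.70 ± 0.42 for sgBgal, sgPpia#3.2 and sgPpia#4.1, with limma adjusted p of 0.021, 0.033 and 0.018. An exact permutation test of 3 samples against 3 gave p = 0.1 with each sgRNA, the smallest it allows. After rescaling the rise was 1.40 ± 0.23 averaged over the sgRNAs, and with sgPpia#3.2 it was 1.31 ± 0.40 with adjusted p of 0.0505. With no filter on low values Mxd1 was also not called with sgPpia#3.2.

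Mxd3 (MAD3) is an unusual family member that is expressed in dividing cells during S phase. With sgBgal it fell from 10.5, 16.7 and 24.0 TPM in lines 4711-1, 4711-18 and 4716-11 to 3.64, 2.92 and 7.64 TPM. With sgPpia#3.2 the Control values were 12.4, 4.30 and 21.9 TPM and the Restored values 3.34, 1.94 and 6.81 TPM. With sgPpia#4.1 they were 6.77, 21.5 and 22.3 TPM before and 1.74, 3.26 and 7.71 TPM after. Mxd3 was lower after restoration in 9 of 9 cultures, as were 12.8% of tested genes, but the ranges of the groups overlapped, at 4.30 to 24.0 TPM in Control and 1.74 to 7.71 TPM in Restored samples. The 3 highest Restored values were those of line 4716-11. For single sgRNAs the log2 fold change was -1.67 ± 0.60, -1.34 ± 0.60 and -1.78 ± 0.60, with limma adjusted p of 0.080, 0.19 and 0.077. With the replicate block the adjusted p was 0.0041, 0.016 and 0.0034. The exact permutation test of 3 samples against 3, whose smallest p is 0.1, gave p = 0.1, 0.2 and 0.2. The low Control value of 4.30 TPM came from the sample that stood apart. Without it the change with sgPpia#3.2 was -1.92 ± 0.60 (limma adjusted p 0.064), with 4711-18 then left in the Restored group alone. Within 4711-1 and 4716-11 the change with sgPpia#3.2 was -1.63 and -1.55.

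Mycl had the same direction in each culture. In lines 4711-1, 4711-18 and 4716-11 with sgBgal it went from 9.04, 1.72 and 4.93 TPM to 1.31, 0.418 and 0.792 TPM. With sgPpia#3.2 it went from 4.27, 4.81 and 3.87 TPM to 0.821, 0.553 and 0.573 TPM, and with sgPpia#4.1 from 9.54, 1.54 and 6.33 TPM to 1.77, 0.237 and 0.446 TPM. Each Restored value was below its own Control value, and the highest Restored value (1.77 TPM) lay above the 2 lowest Control values, both of line 4711-18. For sgBgal, sgPpia#3.2 and sgPpia#4.1 the log2 change of Mycl was -1.60 ± 0.50, -1.69 ± 0.50 and -1.77 ± 0.50. With no filter on low values the limma adjusted p was 0.083, 0.081 and 0.067, so Mycl was not called within an sgRNA there, while the average over the sgRNAs was (adjusted p 0.0011). The exact permutation test of 3 samples against 3 gave p = 0.1, 0.1 and 0.2 in the same order of sgRNAs. Without the 4711-18 Control sample with sgPpia#3.2 the averaged change was -1.66 ± 0.31. With that sgRNA 4711-18 was then left in the Restored group alone.

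Mxd4 (MAD4), whose upstream stretch holds the E-box printed above, was higher after restoration in 9 of 9 cultures, as were 30.8% of tested genes. Its Control range was 33.9 to 53.1 TPM and its Restored range 47.5 to 86.4 TPM. The log2 fold change was 0.49 ± 0.22, 0.68 ± 0.22 and 0.65 ± 0.22 with sgBgal, sgPpia#3.2 and sgPpia#4.1, and none was called. After rescaling it was 0.41 ± 0.13 averaged over the sgRNAs (limma adjusted p 0.022).

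**Figure D2:**
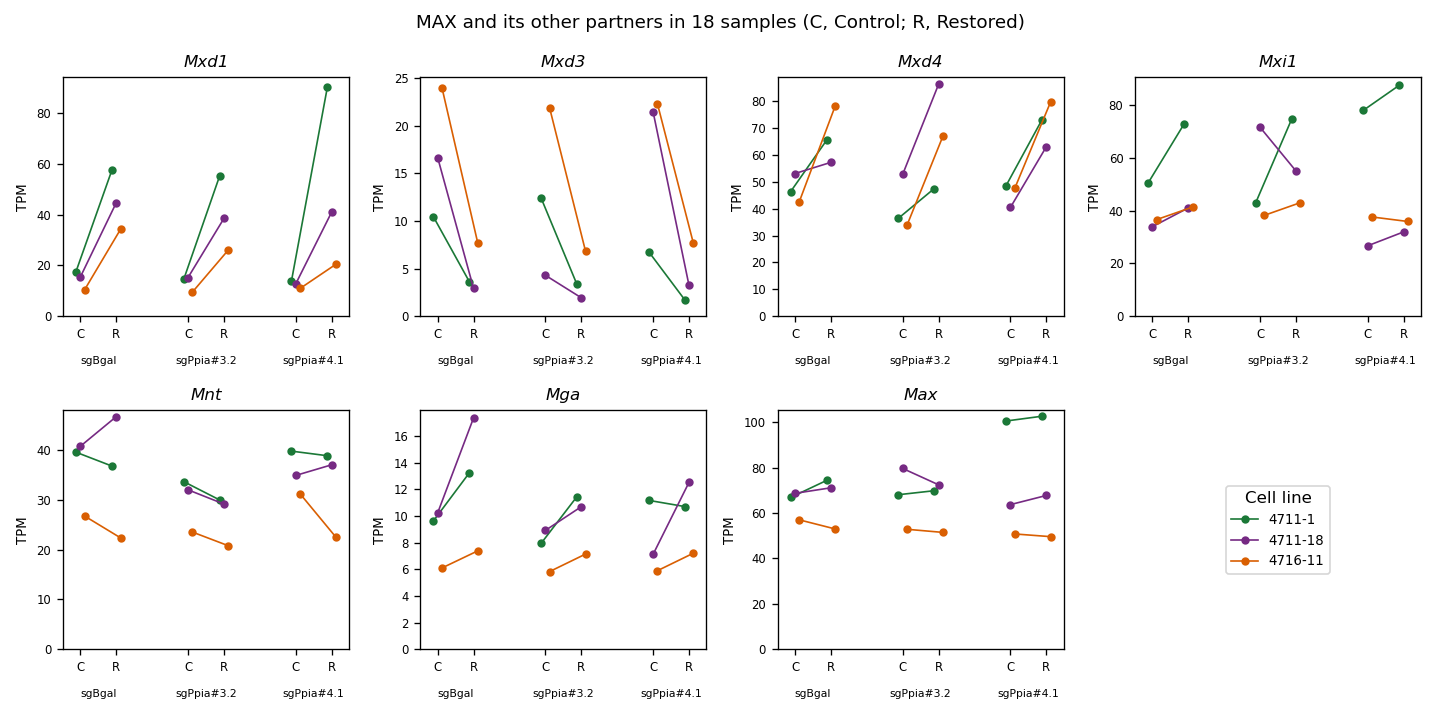
TPM of Max and its partners other than the MYC paralogs in the 18 samples. Each line joins the Control (C) and Restored (R) sample of 1 cell line with 1 sgRNA. Mxd1 and Mxd4 are higher and Mxd3 lower after restoration in all 9 pairs, and line 4716-11 has the lowest Max in each condition.

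The other members showed no called change. Myc itself was 267, 184 and 227 TPM in Control and 331, 159.8 and 196 TPM in Restored cells with sgBgal, in lines 4711-1, 4711-18 and 4716-11. With sgPpia#3.2 it was 282, 364 and 226 TPM, then 344, 171 and 185 TPM. With sgPpia#4.1 it was 324, 194 and 180.3 TPM, then 285, 178 and 160.0 TPM. It was lower in 7 of 9 cultures and higher in the 2 cultures of 4711-1 with sgBgal and sgPpia#3.2, and the averaged change was -0.18 ± 0.20 (limma adjusted p 0.50). The highest Control value, 364 TPM, was that of the sample that stood apart, and the other 2 Control samples of that line were 184 and 194 TPM. Max had an averaged log2 fold change of 0.0049 ± 0.16, with values from 49.6 to 103 TPM over the 18 samples. For Mnt it was -0.11 ± 0.16 and for Mxi1 0.21 ± 0.25. Relative to the median of all genes these are lower by the shift given above: after rescaling Max was -0.19 ± 0.14, Mnt -0.31 ± 0.13, Mxi1 0.01 ± 0.24 and Myc -0.38 ± 0.20, and none was called. Mga, a large protein that pairs with MAX within a Polycomb complex, was higher in 8 of 9 cultures, with a change of 0.36 ± 0.18 (adjusted p 0.13, and 0.0032 with the block). Its values ranged from 5.83 to 17.4 TPM. Mycn, detected mainly in 4711-18, was lower in 8 of 9 cultures, with an averaged change of -0.64 ± 0.53. It reached 1 TPM in 3 Control and 2 Restored samples, so it too passed the filter only through the group where it is high, and its change is a description. With no filter its limma adjusted p was 0.51. With sgPpia#3.2 the change within the lines was 0.20 in 4711-1, -0.78 in 4711-18 and -0.40 in 4716-11. The 4711-18 Control value there, 9.74 TPM and the highest of Mycn, came from the sample that stood apart.

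**Figure D3:**
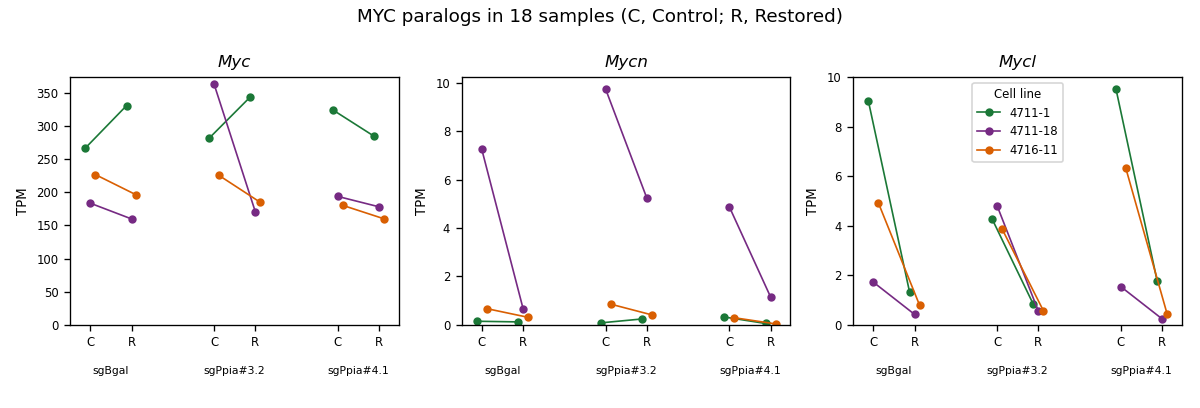
TPM of the 3 MYC paralogs in the 18 samples, with each line joining the Control (C) and Restored (R) sample of 1 cell line and sgRNA. Mycl is lower after restoration in 9 of 9 pairs, Myc in 7, and Mycn is at 1 TPM or more only in line 4711-18.

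Added up as TPM, the MYC paralogs were 187 to 378 in Control (median 232) and 160.5 to 345 in Restored cells (median 186). The antagonists Mxd1, Mxi1, Mxd3, Mxd4, Mnt and Mga together were 133 to 198 TPM in Control (median 156) and 171 to 302 TPM in Restored cells (median 210.0). The ratio of antagonist to paralog TPM had a median of 0.630 in Control (0.489 to 0.883) and 1.05 in Restored cells (0.644 to 1.31), and it was higher in 9 of 9 cultures. Mxd1 made up a median of 8.25% of antagonist TPM in Control and 21.3% in Restored cells. These sums describe mRNA levels and not protein, and no test was made of them.

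The sgRNA made no called difference to any member. In Control cells the log2 difference from sgBgal ran from -0.55 ± 0.60 (Mxd3) to 0.35 ± 0.35 (Myc) with sgPpia#3.2 and from -0.22 ± 0.91 (Mycn) to 0.11 ± 0.43 (Mxi1) with sgPpia#4.1. Without the sample that stood apart the values with sgPpia#3.2 were 0.03 ± 0.60 for Mxd3 and 0.17 ± 0.39 for Myc. In Restored cells it ran from -0.35 ± 0.28 (Mnt) to 0.72 ± 0.91 (Mycn) with sgPpia#3.2 and from -0.25 ± 0.31 (Mga) to 0.11 ± 0.22 (Mxd4) with sgPpia#4.1. Of the 12828 genes, 0% were called by limma in each of the 4 comparisons of sgRNAs, with 311, 27, 154 and 68 genes at an unadjusted p under 0.05 and 0 members among them. With the block these were 1628, 162, 1108 and 424 genes and 1 member, Mnt, with sgPpia#3.2 in Restored cells (-0.35 ± 0.13, limma adjusted p 0.57). With the block 2, 0, 1 and 0 genes were called, which were Ppia in both cases and Muc1 in Control cells. The 4 comparisons use the sgBgal samples in common.

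Restoration was then compared between sgRNAs as an interaction. The difference of the log2 fold changes from that with sgBgal ran from -0.33 ± 0.49 (Myc) to 0.57 ± 1.29 (Mycn) with sgPpia#3.2 and from -0.20 ± 0.61 (Mxi1) to 0.20 ± 1.29 (Mycn) with sgPpia#4.1. Without the sample that stood apart, 4711-18 was left with sgPpia#3.2 in the Restored group alone. The Myc interaction with sgPpia#3.2 was then -0.15 ± 0.52. Within 4711-1 the Myc change was 0.29 with sgPpia#3.2 and 0.31 with sgBgal, and within 4716-11 it was -0.28 and -0.21. The Mycn interaction was 1.54 ± 1.18 without that sample, and 0.98 ± 0.56 with the block. No member was called, and 0% of tested genes were, with 31 and 18 genes at an unadjusted limma p under 0.05. With the block 0 genes were called, and 175 and 80 were at an unadjusted p under 0.05. The errors of the members' interactions were 0.31 to 1.29 without the block and 0.19 to 0.58 with it.

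The lines differed in which network genes they held beside Myc. Mycn was at 0.669 to 9.74 TPM in the 6 samples of 4711-18, at 0.0532 to 0.320 TPM in 4711-1 and at 0.0368 to 0.854 TPM in 4716-11, so it passed the filter on low values only through 4711-18. In that line it was 7.24, 9.74 and 4.87 TPM in Control cells with sgBgal, sgPpia#3.2 and sgPpia#4.1, and 0.669, 5.23 and 1.15 TPM in Restored cells. On the log2 scale it was 2.04 above 4711-1 in 4711-18, and 4716-11 minus 4711-18 was -1.76. These are descriptions with no test, since a gene kept only through 4711-18 had to be higher there. No other member was called between 4711-18 and 4711-1, where 8.93% of all tested genes were. The 6 samples of a line are its 6 conditions, so p-values between lines speak of these 3 lines and not of SCLC lines at large.

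**Figure D4:**
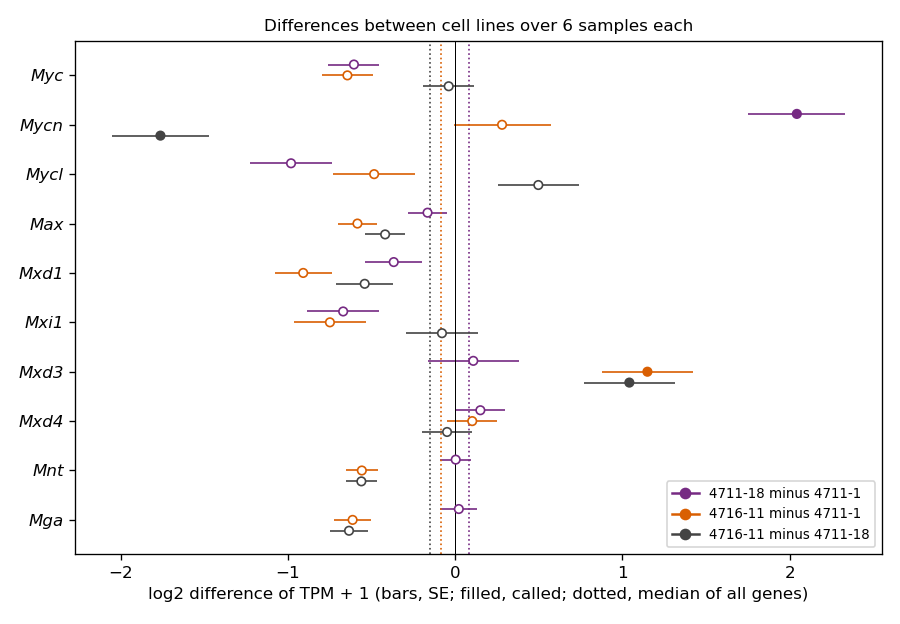
Log2 difference of the 10 members between cell lines over 6 samples each, with SE bars. Filled points passed the thresholds for a call, and dotted lines mark the median of all tested genes. Mxd3 lies at 1.15 and 1.04 for 4716-11 against 4711-1 and 4711-18, and the points of Mycn (2.04 and -1.76) are a description, since it passed the filter only through 4711-18.

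Mxd3 was highest in 4716-11, at 1.15 ± 0.27 on the log2 scale above 4711-1 (limma adjusted p 0.0039) and 1.04 ± 0.27 above 4711-18 (adjusted p 0.0056). Without the 4711-18 Control sample with sgPpia#3.2 the second difference was 0.79 ± 0.23 (adjusted p 0.013), under the minimum for a call. It was the 1 member called in each of those comparisons, leaving Mycn aside in the second, where 6.82% and 8.96% of all tested genes were called. In Control samples alone Mxd3 was not called in either comparison, at 1.16 ± 0.47 (adjusted p 0.12) and 0.89 ± 0.47 (adjusted p 0.20). In Restored samples alone it was called in both, at 1.14 ± 0.22 (adjusted p 0.0073) and 1.19 ± 0.22 (adjusted p 0.0043). Several members of 4716-11 were lower than in 4711-1 with adjusted p under 0.05 but less than 1 on the log2 scale: Mxd1 (-0.91 ± 0.17), Mxi1 (-0.75 ± 0.22), Myc (-0.64 ± 0.15), Mga (-0.61 ± 0.11), Max (-0.58 ± 0.12) and Mnt (-0.56 ± 0.09). By adjusted p alone 28.8% of all tested genes were lower and 17.9% higher in that comparison. Line 4711-18 was lower than 4711-1 in Mycl (-0.98 ± 0.24), Mxi1 (-0.67 ± 0.22) and Myc (-0.61 ± 0.15), also short of the minimum, where 19% of all tested genes were lower and 30.1% higher by adjusted p alone. Between 4716-11 and 4711-18 the median of all genes was -0.15, and 489 genes were called higher and 660 lower, which rescaling turned to 651 and 466. After rescaling Mxd3 was still called there (1.19 ± 0.29), and Mycl was called lower in 4711-18 than in 4711-1 (-1.01 ± 0.24). Without the sample that stood apart, Mycl was -1.17 ± 0.23 in 4711-18 against 4711-1 (adjusted p 0.0012) and was called.

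The response to restoration was compared between lines with the 3 sgRNA cultures of each line standing as its samples and the sgRNA as a term. A line has 1 pair of cultures per sgRNA and 2 of the sgRNAs lower Ppia, so these are not replicates of 1 condition, and the p-values cover only the spread between these cultures. With all samples no member was called in any of the 3 comparisons, where 2.81% (4711-18 against 4711-1), 1.70% (4716-11 against 4711-1) and 3.32% (4716-11 against 4711-18) of tested genes were. In the first of these 222 genes were called above 0 and 138 below, and after rescaling 156 and 163. Without the sample that stood apart, more genes were called in both comparisons with 4711-18. A member was then called for 4716-11 against 4711-18. When the sgRNA of that sample was left out, members were called in both comparisons with 4711-18. The counts are given with the processing below, so the absence of called members depends on that sample and its sgRNA. For Mycn the mean log2 change was -1.51 ± 0.76 (SD, n = 3) in 4711-18, -0.05 ± 0.26 in 4711-1 and -0.35 ± 0.04 in 4716-11. The Control values of 4711-1, 0.0778 to 0.320 TPM, left little room for a fall, so these values are given with no test. For Mxd1 the mean log2 change was 2.05 ± 0.51 in 4711-1, 1.46 ± 0.17 in 4711-18 and 1.28 ± 0.39 in 4716-11, and the limma adjusted p between lines was 0.21 or higher. For Mycl the drop in TPM was 80.8% to 85.5% of the Control value in 4711-1, 75.7% to 88.5% in 4711-18 and 83.9% to 93.0% in 4716-11. The 4711-18 Control values with sgBgal and sgPpia#4.1, 1.72 and 1.54 TPM, left little room for a fall on the log2 scale, so these too are given with no test.

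Genes for proteins that work with the network were counted against the shares of all tested genes called, 7.64% with sgBgal and 8.93% on average. Of the MLX arm, a parallel set of sugar-sensing factors, 2 of 3 genes passed the filter: averaged over the sgRNAs, Mlx had a log2 fold change of -0.09 ± 0.14 and Mlxip one of 0.29 ± 0.19. None of 14 genes for MYC coactivators and cofactors was called with any sgRNA or on average, and with the replicate block 1, Ep400, was called with sgBgal. The list's median with sgBgal was -0.0047, against 0.19 over all genes. Of 10 genes of the SIN3 and HDAC corepressor, 1 was called in 1 comparison: Sap30, a SIN3 subunit, at -1.11 ± 0.20 with sgPpia#3.2 (limma adjusted p 0.0026) and -0.96 ± 0.12 averaged over the sgRNAs. None of the 10 tested genes of the MGA-containing Polycomb complex PRC1.6 was called. Of 13 tested genes on MYC protein turnover 2 fell with every sgRNA. They were Ube2c (-2.00 ± 0.25, adjusted p 3.0e-05) and Aurka (-2.07 ± 0.20, adjusted p 2.5e-06), averaged over the sgRNAs. Both are mitotic genes as well, and Aurora A is known to bind and stabilise N-Myc.

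Genes that MYC is known to activate lay mostly below 0. Of 60, all tested, 47 had a log2 fold change below 0 with sgBgal, against 34.8% of all tested genes, and the list's median was -0.40 against 0.19. With sgBgal 3 were called, all lower, where 2.2% of all tested genes were called lower. These were Tmem97, a sterol-regulated membrane protein (-1.46 ± 0.23, limma adjusted p 0.0009), Dkc1, the pseudouridine synthase dyskerin (-1.27 ± 0.20, adjusted p 0.00089), and Slc19a1, the reduced folate carrier (-1.05 ± 0.30, adjusted p 0.030). Averaged over the sgRNAs, the same 3 were called lower and 1, Utp20, higher (1.01 ± 0.11). By adjusted p alone 37 of the 60 were lower and 4 higher on average, against 11.2% and 27.9% of all tested genes. Summed TPM of the list was 15677 to 17679 in Control and 10830 to 13001 in Restored cells, and the ranges did not overlap. Over the same samples Myc itself had no called change, and Mxd1 rose as given above. No test of the list as a whole was made.

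Of 10 genes that MYC is known to repress, 8 passed the filter, and 1 was called higher and 1 lower with sgBgal, against 5.46% and 2.2% of all tested genes. Cdkn1a, the cell cycle inhibitor p21 and a direct p53 target, rose by 4.35 ± 0.43 (limma adjusted p 1.8e-05), and Ndrg2, a growth-suppressive gene, fell by 1.13 ± 0.33 (adjusted p 0.035). The list's median was 0.30 with sgBgal and 0.03 averaged over the sgRNAs. Pvt1, the noncoding transcript beside Myc, rose by 1.70 ± 0.15 averaged over the sgRNAs (adjusted p 8.3e-07), from 4.91 to 9.15 TPM in Control to 17.0 to 30.0 TPM in Restored samples. The groups did not overlap, while those of its neighbour Myc did.

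Proliferation genes moved with restoration as well. Of 23 genes 12 were called lower and 0 higher with sgBgal, against 2.2% and 5.46% of all tested genes, with a median of -1.89, and with the block 13 were called lower and 1 higher. On average 12 fell and 1 rose (Ccne1, 1.19 ± 0.30). The largest falls with sgBgal were those of Plk1 (-3.14 ± 0.69), Ccnb2 (-3.01 ± 0.72) and Ccna2 (-2.96 ± 0.53), which drive mitosis and the S and G2 phases, with limma adjusted p of 0.0081, 0.014 and 0.0020. The 4 replication helicase genes of the list were not called: averaged over the sgRNAs, the log2 fold change was 0.31 ± 0.11 for Mcm2, 0.23 ± 0.10 for Mcm6, 0.10 ± 0.13 for Mcm3 and -0.08 ± 0.18 for Mcm5. By adjusted p alone 4 genes of the list were higher on average, against 27.9% of all tested genes: Ccne1, Ccne2 (0.72 ± 0.19), E2f1 (0.71 ± 0.18) and Mcm2. The list's summed TPM was 1239 to 3267 in Control and 892 to 2236 in Restored cells. Without the sample that stood apart, which had the 1239, the Control sums were 2373 to 3267 and did not overlap those of Restored cells. The part of proliferation in the changes of Mxd1, Mxd3 and Mycl was not tested. The SCLC lineage list had 0 called genes of 5 tested.

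**Figure D5:**
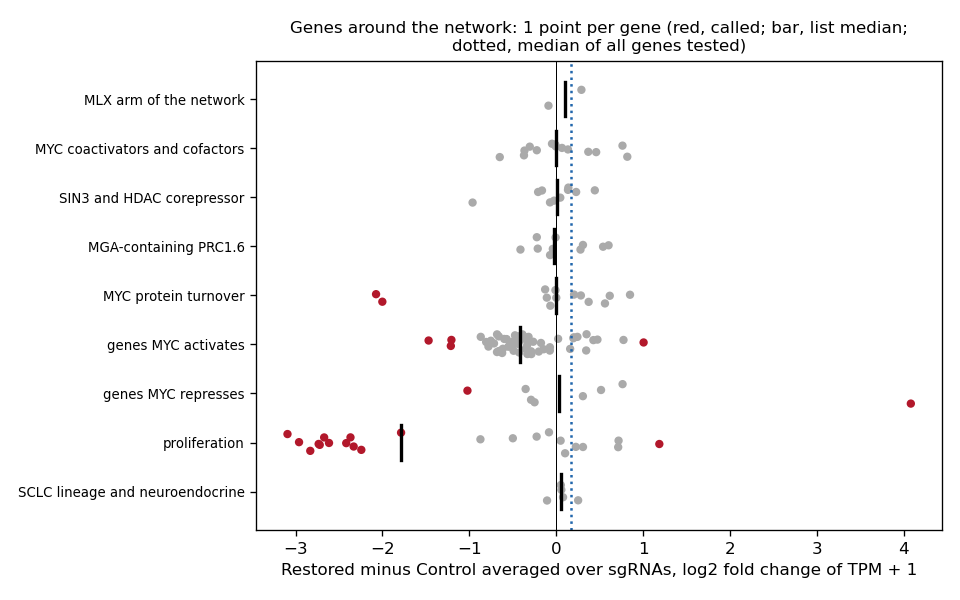
Log2 fold change (Restored minus Control, averaged over sgRNAs) of the genes in 9 lists around the network, 1 point per tested gene. Red points were called, bars are list medians and the dotted line is the median of all tested genes. The 60 genes MYC activates have a median of -0.41 and the 23 proliferation genes a median of -1.79.

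For each member the 2 tested genes with the most similar log2(TPM + 1) over the 18 samples were found by Pearson's r, as a description, since the samples share 3 lines and 6 conditions. Mxd1 was most like Rasa1 (r = 0.97) and Akr1b8 (0.97), and Mxd3 was most like Pdss1 (0.96) and Dbf4 (0.96). Mycl was nearest to Tmem200a (0.97) and Rfk (0.93), Mxd4 to Ripk4 (0.95) and Abca2 (0.92), and Mycn to Gstm6 (0.93) and Dhrs1 (0.93). Myc had the least similar neighbours, F2r (0.88) and Disp2 (0.87). Max was nearest to Mtmr6 (0.95) and Rbm7 (0.94), Mxi1 to Abca5 (0.93) and Stambpl1 (0.92), Mnt to Ptpn9 (0.93) and Ralgapb (0.93), and Mga to Zmym5 (0.98) and Tab2 (0.98).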

How the data were processed

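RNA was sequenced from 18 samples in 6 conditions. The table the authors deposited holds TPM, with 25239 genes as rows and a column for every sample. The submitters' processing notes name HISAT2 and bcl2fastq 2.17, the study's methods name Kallisto or HISAT2 for alignment, and the mouse builds mm10 and GRCm39 are both named. The counter and the annotation are not given in the sources used here. TPM hold no counts, so depth is unknown and no counting error was computed.

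From these values, log2(TPM + 1) was tested with limma 3.58.1 (R 4.3.3) for 12828 genes, those reaching 1 TPM in 3 or more of the 18 samples. Each condition had 1 mean. A call needed an adjusted p (Benjamini-Hochberg) under 0.05 together with a log2 fold change of 1 or more in size, and for interactions and differences of restoration between lines at the adjusted p alone. Line comparisons had the condition as a term. The replicate is the cell line of the labels, which pairs samples across conditions: deviations from condition means correlated at 0.729 on average within lines (0.580 to 0.872 over 45 pairs). The labels do not say whether cultures were separate otherwise, so p-values measure the spread between these samples. The fit without this replicate block comes first. Exact permutation tests used scipy 1.17.1 with Python 3.11.15, and limma was tested on simulated data. Alternatives were another pseudocount, other filters, median-of-ratios rescaling, the block, eBayes with trend and robust estimates, the compared groups alone, no minimum fold change, Control or Restored samples alone for lines, and leaving out lines, sgRNAs or, chosen after its values were seen, 1 sample.

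The members and lists were chosen with earlier results of these data known. Named genes are the members, Trp53, Ppia, Pvt1, up to 3 called genes per list with the largest change with sgBgal, and the 2 genes most like each member. Cdkn1a and Mki67 as sample checks, lineage markers, Sap30, Ep400, Muc1, Utp20, Ccne1, Mlx, Mlxip, the Mcm genes, E2f1 and Ccne2 were named after their values were seen. Promoter windows and gene positions are RefSeq on GRCm38.p6, and exons are GENCODE M21. A gene of the lists is not reported here.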

Additional observations from a re-analysis of the deposited data

Results flagged for a closer look

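The change of Max with restoration had opposite signs in 2 lines. In 4711-1 its log2 change was above 0 in 3 of 3 cultures, with a mean of 0.07, and in 4716-11 it was below 0 in 3 of 3 cultures, with a mean of -0.06. The difference (4716-11 minus 4711-1) was -0.13 and was not called by limma (adjusted p 0.89). Both means are small beside the spread of Max between samples, 49.6 to 103 TPM. The change in 4711-1 is smaller than the median of all tested genes, 0.17, and after median-of-ratios rescaling Max had an averaged change of -0.19 and a difference between these lines of -0.17 (limma adjusted p 0.80), which puts both lines below 0.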

How the results depend on the processing

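Of the members' values under all alternatives, 1739 kept their direction and side of the threshold or moved by less than their error, 28 lost a call, 28 gained 1 and 15 moved by more than their error without a call. The sign differed for 109 of 1810 values, all 15 of the latter included, and for 0 of those called as reported. The 3 members called on average over the sgRNAs numbered 3 under each alternative that gave a value but for no minimum fold change (4). Members called with sgBgal, sgPpia#3.2 and sgPpia#4.1 (2 each) became 1, 0 and 1 without a filter on low values, 1, 1 and 0 with only the groups compared, and 1 with sgPpia#3.2 after rescaling. They were 1 with sgBgal and 1 with sgPpia#3.2 without the 4711-18 Control sample with sgPpia#3.2. Without a line in turn they ranged from 0 to 1 with each sgRNA, with Mxd1 and Mycl losing calls without 4711-1 or 4716-11, and Mxd1 without 4711-18. With fewer samples the errors are estimated from fewer residuals. The genes called ranged from 466 to 670 (sgBgal), 229 to 631 (sgPpia#3.2) and 280 to 684 (sgPpia#4.1).

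With the replicate block 1177 genes were called with sgPpia#4.1, and 2 and 1 for sgPpia#3.2 against sgBgal in Control and Restored cells. With the block and without the sample that stood apart, 1207 (sgPpia#3.2), 1184 (sgPpia#4.1), 1 and 1 were called. The block changed no other count by over 1.5 times. With only the groups compared 367 and 416 genes were called with sgPpia#3.2 and sgPpia#4.1. With no minimum fold change the restoration counts were 1773, 1284, 1322 and, on average, 5013. The line counts then were 6293, 5984 and 7078 genes and 4, 7 and 6 members, in the order 4711-18 against 4711-1, 4716-11 against 4711-1 and 4716-11 against 4711-18.

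A pseudocount of 0.1 gave 1387 and 1776 genes for the latter 2 line comparisons, 2 members for 4711-18 against 4711-1, and 181, 115 and 256 genes for restoration between lines in that order. With at least 5 TPM, 135 genes were called for restoration in 4716-11 against 4711-1. Rescaling gave 2 members for 4711-18 against 4711-1. With Control samples only, 0 and 1 members were called for 4716-11 against 4711-1 and against 4711-18, and with Restored samples only 2 for the former. Without the sample that stood apart, 2 members were called for 4711-18 against 4711-1 and 1 for 4716-11 against 4711-18. Restoration between lines then gave 1245 genes (4711-18 against 4711-1) and, for 4716-11 against 4711-18, 1403 genes and 1 member. In the 3 comparisons of restoration between lines, leaving out sgBgal gave 4, 26 and 21 genes and leaving out sgPpia#4.1 gave 6, 26 and 49. Leaving out sgPpia#3.2 gave 58 genes for 4716-11 against 4711-1, 1 member for 4711-18 against 4711-1 and 2 members for 4716-11 against 4711-18. Counts of members between lines include Mycn, which passed the filter only through 4711-18, and those for restoration, compared between lines or not, include Mycl and Mycn, which passed it only through Control samples. The cause of these changes was not tested.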

Other observations

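Among the members, Mxd1 and Mxd3 had the most opposed levels over the 18 samples, with a Pearson r of -0.87 of their log2(TPM + 1). Myc and Mxi1 went most together, at 0.77, followed by Max and Mxi1 at 0.72. Mnt and Mga correlated at 0.71, as did Max and Mnt. Mxd3 and Mga stood at -0.76. These values describe 18 samples that share 3 lines and 6 conditions, and no p is given. Ratios of paralog to Max TPM were 2.80 to 4.75 in Control and 2.26 to 4.94 in Restored cells.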
